A study of Mus musculus with 2 samples.

Results

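Genes named Rnf encode RING finger proteins, many of which are ubiquitin ligases. Of these genes, 60, described here, were present among the 15271 genes of a table of predicted microRNA sites in mouse embryonic stem cells. Members were taken by name: the whole symbol had to be Rnf followed by digits, and Rnf2, a Polycomb protein, was left out. They carried 5278 of the 1641948 entries of that table and 23 of the 6211 clusters of the deposited cluster list. The study used iCLIP, in which proteins are fixed by ultraviolet light to the RNA they touch and the attached RNA is purified and sequenced, to map the RNA held by Ago2. Ago2 is a member of the Argonaute family, which binds microRNAs and through them messenger RNAs. The cells came from 2 clonal mouse embryonic stem cell lines, in which human Ago2, driven by doxycycline, was the one Argonaute protein left. TT-FHAgo2 carried FLAG-HA-tagged Ago2 and TT-Ago2 an untagged one as control. Doxycycline stood at 0.1 µg/mL during culture of either line and at 2.5 µg/mL over the 24 h of induction, in medium with serum and leukemia inhibitory factor on gelatin. There was 1 library per line, so no spread between replicates was measured and no test between conditions was made.

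The tagged library held 789000 reads, as implied by the scale of its values. The untagged library enters only through the whole number of reads that the authors' enrichment values imply, and how that number was scaled is not known. Intervals are exact (Clopper-Pearson) 95% binomial intervals and cover counting error only, since matches in 1 transcript share reads and reads are not taken as independent molecules. Where no match of a gene held a read, the limit given in place of an interval is the share that 3 counts of its matches would make. All 8 embryonic stem cell markers were listed, at 84.2 to 1650 FPKM (fragments per kilobase of transcript, scaled to library depth, the expression unit of the table, for which no source library is named). Of 5 primitive endoderm markers, 2 were listed, at 0.165 FPKM at most, and of 5 fibroblast markers Vim (45 FPKM) and Thy1 (1.89 FPKM) were. Of 4 neural markers, Tubb3 (40.1 FPKM), Pax6 (3.95 FPKM) and Nes (0.551 FPKM) were listed, and of 4 trophectoderm markers Krt8 (9.85 FPKM) and Eomes (0.957 FPKM) were. The part of other cell types in the results was not tested.

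A RING ligase brings a ubiquitin-charged conjugating enzyme to its substrate, and the chain it builds sends the substrate to the proteasome, moves it within the cell or changes its partners. A microRNA guides Argonaute by its seed, bases 2 to 8, which pairs with a complementary match that lies most often in the 3' UTR of a messenger RNA. Embryonic stem cells of the mouse are known for the microRNAs of the miR-290 cluster and of the miR-17-92 family.

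Some of the microRNAs whose seed matches lay under the Ago2 reads of Rnf transcripts are shown first, since the results below refer to them. Other microRNAs named below, also with matches under Rnf clusters, are not printed. Sequences are from RefSeq on GRCm38.p6, 5' to 3', with the seed in capitals. MicroRNAs were paired with a match through this seed alone.
miR-291a-3p: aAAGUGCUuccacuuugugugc
miR-290a-3p: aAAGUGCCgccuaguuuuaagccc
miR-17-5p: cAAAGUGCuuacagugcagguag
miR-19b-3p: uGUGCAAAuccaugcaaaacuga
miR-92a-3p: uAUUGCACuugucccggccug
miR-541-5p: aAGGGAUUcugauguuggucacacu
miR-103-3p: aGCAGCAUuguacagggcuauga
miR-16-5p: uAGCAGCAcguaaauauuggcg
The seeds of miR-291a-3p and miR-290a-3p share the run that pairs with the 6mer GCACTT, and that of miR-17-5p is the same run moved by 1 base. Their matches therefore overlap and were often covered by the same reads.

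Well covered matches of these seeds in Rnf transcripts, which the results turn on, were the following, as DNA on the transcript's strand, with the match in capitals and mm9 coordinates after the gene.
Rnf145, chr11:44375063-44375070, plus strand, miR-290a-3p: GGCACTTA
Rnf6, chr5:147021481-147021487, minus strand, miR-291a-3p: AGCACTT
Rnf6, chr5:147021480-147021486, minus strand, miR-17-5p: GCACTTT
Rnf11, chr4:109126366-109126373, minus strand, miR-19b-3p: TTTGCACA
Rnf4, chr5:34694651-34694658, plus strand, miR-92a-3p: GTGCAATA
Rnf111, chr9:70274520-70274527, minus strand, miR-19b-3p: TTTGCACA
Rnf20, chr4:49668880-49668887, plus strand, miR-291a-3p: AGCACTTA
The match of Rnf145 lies in coding sequence and the others in 3' UTRs.

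Ago2 clusters enriched over the untagged library at the authors' p under 0.05 were present in 12 of the 60 Rnf genes (20%, 10.8 to 32.3), against 17.1% of all genes of the site table. The share of Rnf genes is thus near that of all genes at this threshold. With the authors' p under 0.01 it was 11 of 60 (18.3%, 9.52 to 30.4), against 10.5% of all genes, which lies within the interval. The authors' p equals, within 0.0001 in all 6211 clusters, a one-sided exact binomial p on the tagged and untagged reads at even odds. It compares the reads of 1 library with those of the other, not the conditions, and follows from the read numbers alone: 5 reads against 0 give 0.0313 and 11 against 0 give 0.0005 by this exact test. Of the 12 genes, 7 had 1 cluster and 5 had more: Rnf20 had 5, Rnf44 4, Rnf4 3, and Rnf138 and Rnf6 2 each. Of the 23 clusters, 21 (91.3%, 72 to 98.9) were annotated to the 3' UTR, against 61.3% of all 6211 clusters and 68.5% of the 5426 clusters of genes in the site table. A cluster of Rnf216 was in coding sequence and one of Rnf20 in an intron. The clusters held 5 to 14 tagged reads, with a median of 7, and no untagged read was implied for 21 of them. The other 2, in Rnf6 and Rnf169, had 1. Clusters of the same gene overlapped in 10 cases and merge to 17 regions, so their reads were not added up. Of the 17 regions, 15 (88.2%, 63.6 to 98.5) were in the 3' UTR. The clusters of all genes were not merged. The 68.5% of genes in the site table lies within the interval of the 17 regions and below that of the 23 clusters. The 61.3% of all clusters lies below both.

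A listed 7mer or 8mer seed match of the 50 microRNA seeds in the table lay under 13 of the 23 clusters (56.5%, 34.5 to 76.8) by at least 1 nt. Over all clusters of genes in the table the share was 39.0%. The 13 clusters belonged to 10 genes, all of the 12 but Rnf114 and Rnf169. With overlapping clusters merged, the share was 10 of 17 regions (58.8%, 32.9 to 81.6). The share of all clusters, which were not merged, lies within both intervals. With the whole match required inside the cluster, the share was 10 of 23 (43.5%, 23.2 to 65.5). Matches that reach past a cluster edge are among those named below for Rnf111, Rnf185, Rnf220 and Rnf44.

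**Figure D1:**
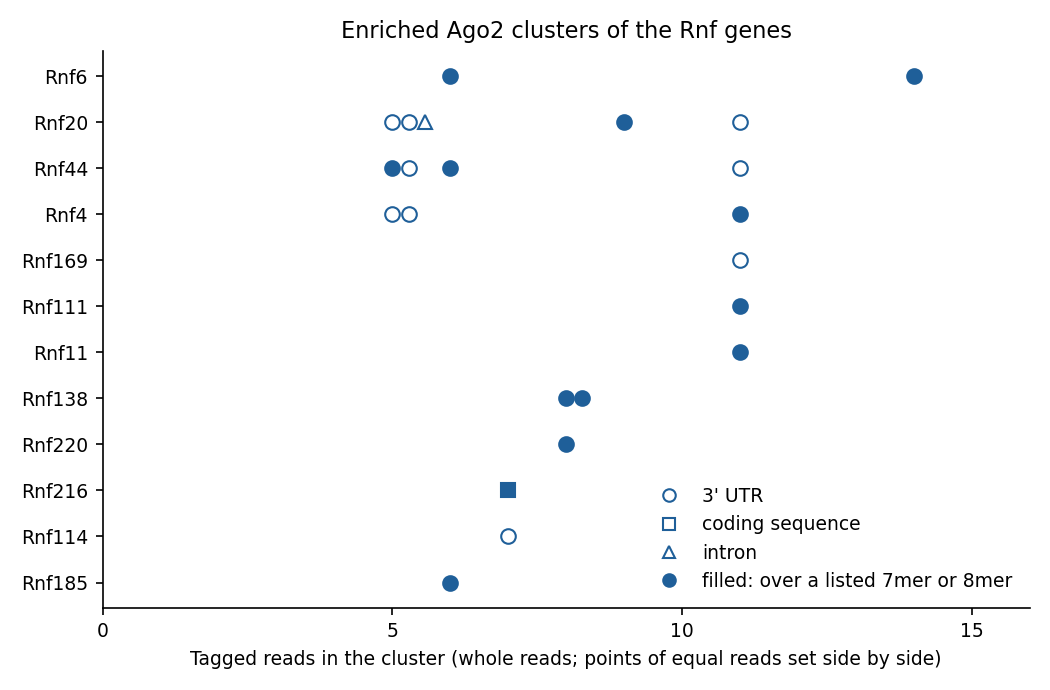
Tagged reads (horizontal axis, whole reads) of each of the 23 enriched clusters of Rnf genes, by gene (vertical axis), in the 1 tagged library. Circles are 3' UTR, the square is coding sequence and the triangle an intron, and filled symbols lie over a listed 7mer or 8mer. The Rnf6 cluster of 14 reads stands to the right of all others, which hold 11 reads or fewer.

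Among ligases of the DNA damage response and of chromatin, 4 of 7 genes had a cluster (57.1%, 18.4 to 90.1, against 17.1% of all genes), with 11 clusters in all. The median expression of the group was 14.8 FPKM, and the role groups were drawn up with earlier results of these data known, so nothing particular to them is read from these shares. Rnf4 recognises proteins that carry SUMO chains and was listed at 35.6 FPKM. Its 3 clusters lay side by side in the 3' UTR on chromosome 5, from 34694606 to 34694767. The middle one held 11 reads against 0, which is 3.67 times a floor of 3 counts per cluster. Such multiples of the floor leave out the counting error of the tagged reads and are not lower limits. This middle cluster covered the match to miR-92a-3p and its relatives. That match had 12 reads and a phastCons conservation score of 0.9999 on a scale from 0 to 1. The flanking clusters held 5 reads each against 0, without a 7mer or 8mer. Of the 34 listed matches of Rnf4, 19 (55.9%) held at least 1 read, the highest share among the 46 Rnf genes with at least 20 matches, where the median was 14.3%.

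Rnf20 and Rnf40 form the dimer that attaches ubiquitin to histone H2B, and clusters were listed for Rnf20 alone. Of its 5 clusters, 3 overlapped over the 3' UTR from 49668880 to 49668966 on chromosome 4, with 9, 5 and 5 reads against 0. The cluster of 9 reads (3 times the floor) began at the match to miR-291a-3p, which had 8 reads. The highest count of the region, 12 reads, was at the 8mer CCTAGACA, which is outside the listed seeds. A further cluster of 11 reads against 0 lay downstream, over a 6mer alone, and the intronic one held 5 reads. Rnf40, listed at 20.7 FPKM against 13.0 FPKM for Rnf20, had reads at 14 of 58 matches (24.1%), with 2 at most at any listed match.

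Rnf8 and Rnf168 build the ubiquitin signal around DNA breaks, and Rnf169, a paralogue of Rnf168, binds to it. Rnf169 had 43 of 112 listed matches with a read (38.4%), at an expression of 4.06 FPKM. In its 3' UTR, a cluster of 11 reads against 1 (a ratio of 11, 1.6 to 473) covered a pair of 6mers and no longer match. Rnf168 had reads at 5 of 51 matches (9.80%) and no cluster, although it was listed at 14.8 FPKM. No read was found at the 12 listed matches of Rnf8 (11.0 FPKM), which allows a share of up to 25.0%. Rnf138, which acts in the repair of breaks by recombination, was listed at 31.9 FPKM. It had a pair of overlapping 3' UTR clusters of 8 reads each against 0 (2.67 times the floor). A 7mer match of miR-30 with 10 reads and the overlapping matches of miR-291a-3p and miR-17-5p with 7 reads lay under them. In all, 24 of its 54 matches (44.4%) held a read.

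In the group of TGF-beta, Wnt and transcription signalling, 4 of 7 genes had a cluster (57.1%, 18.4 to 90.1, against 17.1% of all genes), with 5 clusters in all and a median expression of 8.55 FPKM. Rnf111, known as Arkadia, removes inhibitors of Smad proteins and acts with Nodal in the mouse embryo. Its 3' UTR cluster on chromosome 9 from 70274522 to 70274569 held 11 reads against 0 (3.67 times the floor). The cluster overlapped most of the miR-19b-3p match, with 8 reads, and covered CTTGTAT, the match of miR-381-3p, with 11. Of the 26 listed matches in this 3' UTR, 13 held a read, and the most covered position outside the cluster was a control 8mer with 6.

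Rnf11 is a small RING protein of signalling and ubiquitin-editing complexes. In its 3' UTR on chromosome 4, the stretch of 109126327 to 109126386 formed 1 cluster that held 11 reads against 0. Its miR-19b-3p match, an 8mer, had 13 reads and a conservation score of 1. The same 8mer was thus the most covered 7mer or 8mer of Rnf11 and was also covered in Rnf111, and in the 3' UTR of Rnf167, a lysosomal membrane ligase without a cluster, it held 5 reads.

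Rnf6, a nuclear ligase related to Rlim, had the Rnf cluster with the most reads, 14 against 1 (a ratio of 14 with a counting interval of 2.13 to 592, exact binomial p = 0.0005), on chromosome 5 from 147021438 to 147021503. The overlapping matches of miR-291a-3p and miR-17-5p held 18 reads each, with a score of 1, and the end of an overlapping cluster of 6 reads against 0 reached into them. The peak of the larger cluster had 6 crosslink events, and those of the other Rnf clusters had 1 to 3. Rnf6 was listed at 8.55 FPKM. Rnf220, a ligase that acts on beta-catenin signalling, had 1 cluster of 8 reads against 0 over an 8mer of miR-423-3p, ACCGAGCA, with 5 reads. Rnf146, which marks ADP-ribosylated Axin, had reads at 6 of 64 matches (9.38%) and no cluster at 13.8 FPKM. Rnf11, at 11.3 FPKM, had reads at 19 of 54 (35.2%).

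Among membrane, endoplasmic reticulum and endosome ligases, 1 of 16 genes had a cluster (6.25%, 0.158 to 30.2, against 17.1% of all genes). A read was held by 76 of their 678 listed matches (11.2%), near the 10.7% of all genes. The cluster belonged to Rnf185, which acts in degradation from the endoplasmic reticulum. It lay on chromosome 11 from 3316483 to 3316520 and held 6 reads against 0 (2 times the floor), although the gene was listed at 0.265 FPKM. The matches below it were AATCCCT of miR-541-5p, with 7 reads, and GGGGCCC of miR-296-5p, with 6, and their conservation scores were 0.0033 and 0.0001. Rnf5, a close relative of Rnf185 listed at 28.0 FPKM, had no read at its 13 listed matches, which allows a share of up to 23.1%.

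Rnf145 and Rnf139 are sterol-regulated ligases of the endoplasmic reticulum. Rnf145 had the most covered match of the Rnf genes, 20 reads at the 8mer of miR-290a-3p in its coding sequence, with a score of 1, and no enriched cluster. It was chosen for description after its values were seen. Reads were found at 15 of its 112 listed matches (13.4%). Rnf139 had reads at 17 of 64 matches (26.6%), none above 2. Rnf170, another ligase of that membrane, had no read at 63 matches (up to 4.76%) at 2.51 FPKM.

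Of 10 ligases of immune and cell death signalling, 2 had a cluster (20%, 2.52 to 55.6, against 17.1% of all genes). Rnf216, a RING-between-RING ligase, had a cluster of 7 reads against 0 (2.33 times the floor) in coding sequence. It lay on chromosome 5 from 143754328 to 143754373, over the miR-17-5p match GCACTTT with 7 reads. Outside the cluster it had up to 4 reads at a match, and 21 of 84 matches (25.0%) held a read. Rnf114 had a 3' UTR cluster of 7 reads against 0 without any listed match. Rnf31, the catalytic subunit of the ligase for linear ubiquitin chains, had reads at 5 of 34 matches, 1 each. Rnf25 had none at 21 (up to 14.3%) at 12.9 FPKM. Rnf34, which binds caspases, was listed at 23.7 FPKM and had reads at 6 of 28 (21.4%), with 2 at most.

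The other 19 genes, of mixed or less studied roles, held 4 clusters, all in 1 gene, and 73 of their 483 listed matches held a read (15.1%). Rnf44 was listed at 38.5 FPKM and had these 4 clusters, all in the 3' UTR. The one with most reads, 11 against 0, on chromosome 13 from 54781928 to 54781998, covered no listed 7mer or 8mer. The other 3 overlapped between 54781052 and 54781112 and held 5, 5 and 6 reads, with GTATGTA (4 reads) and GGGGCCC of miR-296-5p (6 reads) below them. The most covered listed match was a 6mer of the miR-19 seed, TTGCAC, with 9 reads and a score of 1. Rnf44 had reads at 24 of its 61 listed matches (39.3%), all of the 24 in the 3' UTR.

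High expression did not go with a cluster in every case. The 8 Rnf genes of highest expression without one were Rnf10 (137 FPKM), Rnf7 (107), Rnf187 (85.3), Rnf181 (54.3), Rnf167 (45.1), Rnf126 (44.2), Rnf5 (28.0) and Rnf34 (23.7). Rnf7, the RING subunit that pairs with cullin 5, had no read at 13 listed matches (up to 23.1%) and 1 read at most at any control 8mer. Rnf10 had reads at 17 of 65 matches (26.2%), with 4 at most. Rnf181 had reads at 7 of 15, with 3 at most, and its 8mer TGCTGCTA of miR-16-5p was among those with 3. Rnf187, a coactivator of AP-1 transcription, had reads at 8 of 27, and Rnf126, a ligase of protein quality control, at 3 of 24.

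The 12 genes with a cluster had a median expression of 12.2 FPKM and a median of 30.5 listed matches in the 3' UTR. The 48 without one had 7.5 FPKM and 14 matches. At least 1 read at a match or control 8mer was found in 47 of the 60 Rnf genes (78.3%), against 67.5% of all genes, and 35 of these had no cluster. The 13 Rnf genes without any read were listed at 0.111 to 28.0 FPKM, with a median of 2.51. Coverage summed over listed matches, in which a read counts at each match it spans, was 936 over all Rnf genes. The 10 genes with the highest sums (Rnf169, Rnf44, Rnf111, Rnf6, Rnf138, Rnf4, Rnf11, Rnf216, Rnf10 and Rnf220) made up 590 of it (63%), and neighbouring matches under the same reads raise such sums.

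**Figure D2:**
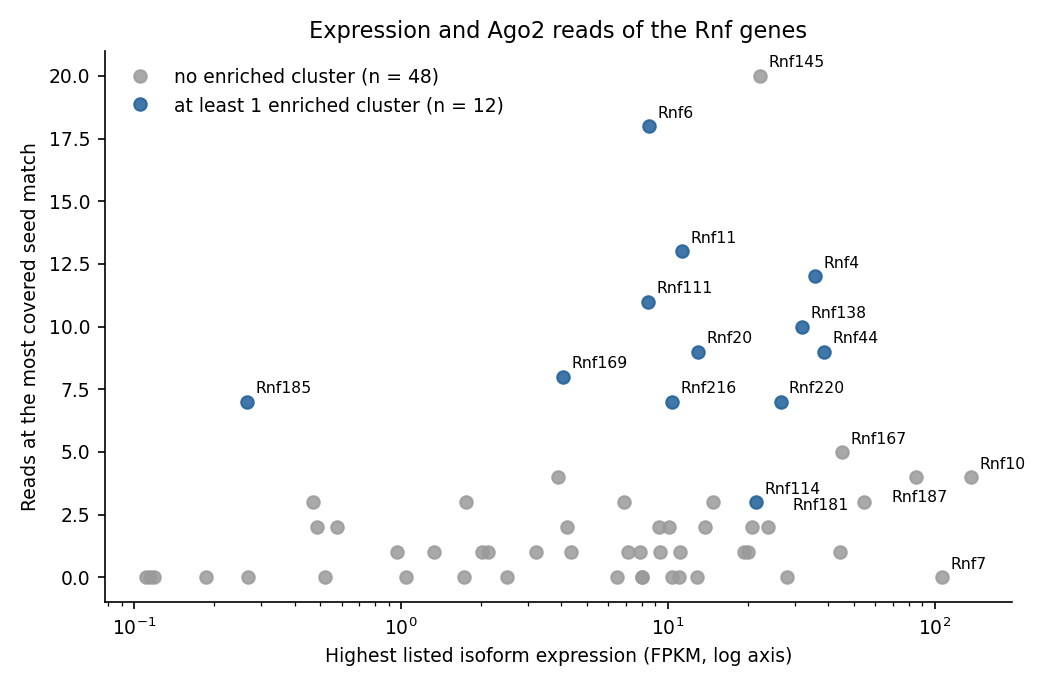
Each point is 1 of the 60 Rnf genes, with its highest listed isoform expression (horizontal log axis, FPKM) and the reads at its most covered listed match (vertical axis) in the tagged library. Genes with a cluster (blue, n = 12) sit at 3 to 18 reads, and of the genes without one (grey, n = 48) only Rnf145, with 20, is above 5.

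Over all members, 424 of 2314 distinct listed matches held a read (18.3%, 16.8 to 20), against 10.7% of all 687523 such matches in the table. Control 8mers in the same Rnf transcripts, which extend none of the listed seeds, held a read in 301 of 2259 cases (13.3%, 11.9 to 14.8), against 7.21% in all genes. These 8mers are entries of the same table of predicted microRNA sites and can match microRNAs outside the listed seeds. They are therefore a comparison set and not a background free of microRNA matches. Matches and control 8mers were thus both covered more often in Rnf transcripts than over the whole table, which also holds noncoding transcripts with few reads. In 3' UTRs alone, the Rnf shares were 21.3% for matches and 14.8% for control 8mers, and those of all genes were 16.5% and 11.5%. The ratio of matches to control 8mers was 1.44 in both. In coding sequence the ratio was 1.05 for Rnf genes (12.8% against 12.2%) and 1.36 for all genes (11.5% against 8.46%).

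Counting only well covered positions, 38 of 1361 3' UTR matches of Rnf genes (2.79%) and 8 of 1358 control 8mers (0.589%) held at least 5 reads, a ratio of 4.74. For all genes the shares were 2.06% and 0.839%, a ratio of 2.45. The few positions behind the Rnf ratio include neighbouring matches under the same reads.

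Expression differed as well. Rnf genes had a median of 8.48 FPKM, against 4.59 FPKM for all genes. Within ranges of expression, clusters were present in 1 of 11 Rnf genes of 0.1 to 1 FPKM, 1 of 12 of 1 to 5, 2 of 10 of 5 to 10, 3 of 11 of 10 to 20, and 5 of 16 of 20 FPKM and over. All genes of these ranges had one in 4.46%, 12.8%, 20.1%, 26.2% and 30.8%, within the Rnf interval of each range. Genes were placed in these ranges by their highest entry, but matches and control 8mers by the FPKM of their own entry. A range can therefore hold matches of genes that were counted in a higher range. With this placing, the share of Rnf 3' UTR matches with a read was 10%, 17.4%, 25.2%, 29.3% and 34.1% in the same order, against 6.73%, 13.7%, 19.6%, 24.6% and 29.9%. The value of all genes lay below the Rnf interval in the lowest range, at its lower bound (13.7%) in the next and within it in the other 3. Control 8mers in Rnf 3' UTRs also exceeded those of all genes in each range, by 29.9% against 22.8% in the highest one.

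**Figure D3:**
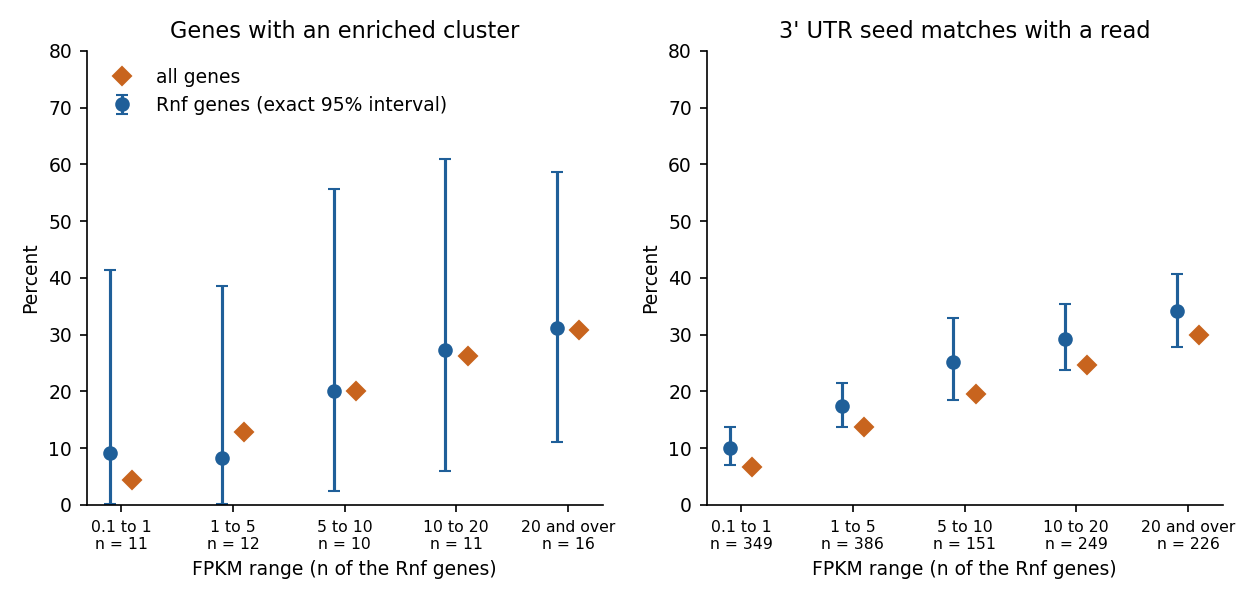
Percent of genes with an enriched cluster (left) and percent of 3' UTR seed matches with at least 1 read (right) by range of FPKM, for Rnf genes (blue, exact 95% interval) and all genes (orange). Genes are placed by their highest entry and matches by their own entry, so the ranges of the panels do not hold the same genes. Left, all 5 orange points lie within the blue intervals. Right, the blue points rise from 10% to 34.1% and each is above its orange one.

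By type, a read was held in Rnf 3' UTRs by 24 of 87 8mers (27.6%, 18.5 to 38.2), 79 of 297 7mers (26.6%, 21.7 to 32) and 187 of 977 6mers (19.1%, 16.7 to 21.7). The interval of 8mers overlaps both others, and those of 7mers and 6mers meet at 21.7. All genes had 21.2%, 19.7% and 15.1%. With a phastCons score of at least 0.9, 100 of 345 Rnf matches in 3' UTRs held a read (29%, 24.3 to 34.1), against 131 of 751 (17.4%, 14.8 to 20.4) with a score under 0.1. These intervals do not overlap. Control 8mers had 55 of 296 (18.6%) against 107 of 790 (13.5%), and the matches of all genes 25.7% against 13.3%. At 5 reads or more the Rnf shares were 5.22% for conserved matches and 1.33% for those under 0.1.

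Each of the 48 seed families that share a 6mer had at least 1 Rnf match with a read. In 41 of them the Rnf share exceeded that of all genes, as it did over all listed matches (18.3% against 10.7%). The family of miR-291a-3p and miR-290a-3p stood highest among the 10 with most supported Rnf matches. Of its 33 matches, 21 held a read (63.6%, 45.1 to 79.6), in 18 genes, against 34.4% of its matches in all genes. The family of miR-103 and its relative of the same seed had 16 of 59 (27.1%, against 14.5%). The miR-19 family, whose matches lay under the clusters of Rnf11 and Rnf111, had 13 of 32 (40.6%, 23.7 to 59.4, against 21.8%) in 10 genes.

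The miR-15/16 family had the most supported Rnf matches, 23 of 105 (21.9%, 14.4 to 31, against 15.8%), in 15 genes, but no more than 4 reads at any of them. Matches of miR-17 and its relatives held a read in 17 of 63 cases (27%, against 18.2%), and the 7mers and 8mers alone in 8 of 12, against 43.8% of those of all genes. The families of miR-298-5p, miR-370-3p, miR-291a-5p, miR-27, miR-22-3p and miR-7a-5p had 19.4%, 21.2%, 27.3%, 18.2%, 16.1% and 17.7%, against 11.8%, 6.95%, 11.5%, 10.6%, 9.53% and 11.8%. The families were ranked by these same counts and Rnf genes are more highly expressed than the average gene, so the differences are descriptions. The shares of all genes also take in matches in long noncoding RNAs and pseudogenes, of which 0.714% and 1.92% held a read. The part of these in the differences was not tested. Matches of different families overlap in places and are counted for each.

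**Figure D4:**
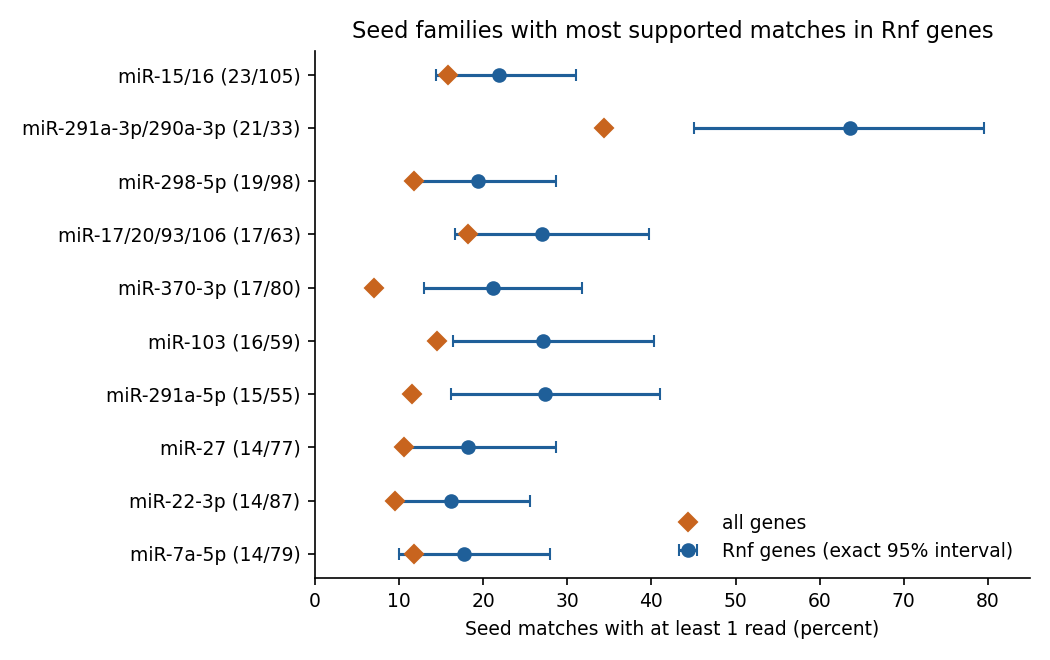
Percent of listed seed matches with at least 1 read for the 10 families with most supported Rnf matches, in Rnf genes (blue, exact 95% interval, with supported over all matches beside the name) and in all genes (orange). The family of miR-291a-3p and miR-290a-3p is at 63.6% against 34.4%.

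Other parts of the ubiquitin pathway were set beside the Rnf genes by lists of textbook members. Clusters were present in 10 of 30 activating and conjugating enzymes (33.3%, 17.3 to 52.8), led by Uba1 with 6, and in 10 of 17 HECT ligases (58.8%, 32.9 to 81.6), led by Herc1 with 7. RING ligases of other names had them in 13 of 37 (35.1%, 20.2 to 52.5), led by Trim71 with 13 and Mdm4, a regulator of p53, with 12. The Rnf share of 20% was the lowest of the 4. Its interval of 10.8 to 32.3 overlaps those of the E1 and E2 list and of the other RING ligases and lies below that of the HECT ligases. The median expression of the lists was 29.4, 10.1 and 10.1 FPKM and the median number of listed 3' UTR matches 19.5, 33 and 24, against 8.48 FPKM and 15 for Rnf genes. The part of these in the shares was not tested. By the share of listed matches with a read the lists lay closer together, at 23%, 22.1% and 19.3%, against 18.3% for Rnf genes.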

How the data were processed

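Values are those of the tagged library as deposited. Per the submitters' processing notes, the tools were Bowtie and TopHat (builds mm9, NCBIM37); the cluster caller is not given. The deposited peak height (a signal) counts whole reads, per the file headers. The authors' log2 enrichment in the score equals the ratio of tagged to untagged reads with 1 added to both, for some whole untagged number (all 6211 clusters, tolerance 0.0051), and this number is used as the untagged reads. Coverage per site is in rpm, made by the authors, and 100% of entries were whole multiples of 1.27 rpm within 0.001 read. Reads at a match and reads of a cluster were counted separately by the authors. Some matches hold more reads than the cluster over them (13 against 11 in Rnf11), for a reason that is not known. With 1 library, no count test was possible. The authors' FPKM values start at 0.1, and a gene was given its highest entry. PhastCons is a deposited score, held as a fraction from 0 to 1. The deposited log2 coverage and the crosslink text (other, per the file headers) were not used beyond the number of events.

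Entries of 1 position, strand and sequence were counted as 1 site. Shorter matches inside a longer one and control 8mers overlapping a listed match were left out, which left 1411606 sites. Cluster names joining several genes were counted for each in the shares of all genes with a cluster. Rnf clusters were taken from names of 1 gene alone. Of 60 symbols, 59 matched RefSeq and 1 a synonym. Of the 50 listed 7mers, 44 matched a RefSeq microRNA seed. Overlap and interval code was tested on simulated data (Python 3.11.15, pandas 2.3.3, scipy 1.17.1).

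An item that the naming rule takes is not reported here and enters no member count. Members, lists and tests were chosen with earlier results of these data known. Genes named are those with at least 3 clusters, the 10 with the lowest p, the 10 with the highest coverage summed over listed matches, the 8 of highest FPKM without a cluster, and examples per role. Others named for comparison (Rnf145 and Rnf214 first) were chosen after their values were seen. Alternatives were other p, read and FPKM minimums, match types, regions, symbols with a letter after the digits, and merged clusters.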

Additional observations from a re-analysis of the deposited data

Results flagged for a closer look

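Matches with at least 10 reads that lie in no enriched cluster were found in a pair of Rnf genes, and they are given here as values. The GGCACTTA 8mer in the coding sequence of Rnf145 held 20 reads, of its 4 neighbours among listed matches and control 8mers within 100 nt 2 held a read, and none of them held more than 1. The control 8mers in the coding sequence of Rnf214 CTGTTGAA and ATGACAGA held 10 reads each, and 1 of the 7 neighbours of the first, namely the second, held a read. The untagged reads at these positions were not analysed here.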

How the results depend on the processing

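Of 26 alternative settings over the shares of Rnf genes with a cluster, of clusters in the 3' UTR, of clusters over a match, and of matches and control 8mers with a read, 20 gave a share within the interval of the value reported. The other 6 were as follows. Asking for at least 2 reads gave 7.65% of listed matches and 3.19% of control 8mers (3.89% and 2.08% in all genes). In 3' UTRs alone, 21.3% of listed matches and 14.8% of control 8mers held a read. Among 7mers and 8mers of all regions, 23.2% did. With 6mers also taken, 82.6% of clusters lay over a match. The share of Rnf genes with a cluster ranged from 18.3% at p under 0.01 (10.5% of all genes) to 22.4% at 1 FPKM or more (22.2%). No paired analysis was possible because there was 1 library per group. Depth limits the rest: 7 of 23 clusters held 5 reads against 0, and a gene without reads at few matches allows the upper shares given with it, so Ago2 binding there was not detectable rather than absent.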
